A study of Homo sapiens with 6 samples.

Results

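The 2 mature arms of the miR-22 hairpin, hsa-miR-22-3p and hsa-miR-22-5p, were taken by name from a table of 1582 miRNAs, and both were found in it. The libraries were made from MDA-MB-231 cells, a line of triple-negative breast cancer cells, so without estrogen and progesterone receptors or amplified HER2. The RARαS77A group (n = 3) overexpressed retinoic acid receptor α with serine 77 replaced by alanine, so that this residue cannot be phosphorylated, and the series' design text names a lentivirus as its carrier. The control group (n = 3) was blank, non-transfected cells. No empty-vector library is among the 6, so the effect of the mutant receptor and that of its delivery cannot be told apart. The experiments are described as triplicates without saying whether these were separate cultures, and p-values then measure only the spread between these libraries, which may be technical.

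miRNAs are processed from hairpins whose stem yields a duplex of a 5p and a 3p strand, of which Argonaute usually keeps one as the guide while the other is degraded. The guide recognises target mRNAs mainly through its seed, the bases near its 5′ end. In miR-22 the guide is the 3p strand. It is known to repress the TET enzymes, which oxidise 5-methylcytosine in DNA, and in breast cancer cells also estrogen receptor α (ESR1) and other regulators of growth. Retinoic acid receptors are nuclear receptors that bind DNA and activate transcription of their target genes, which include miRNA genes.

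The mature sequences are shown because the miR-22 counts are counts of reads assigned to them. They were taken from RefSeq (GRCh38.p14), in 5′ to 3′ direction, with the seed (bases 2 to 8) in capitals.
miR-22-3p: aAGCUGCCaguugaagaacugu
miR-22-5p: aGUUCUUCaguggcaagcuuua

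Both strands have 22 bases and begin with A, and their GC contents are 45.5% (3p) and 40.9% (5p). Positions 1 to 9 of the 5p strand are complementary to positions 12 to 20 of the 3p strand, which is the longest run of Watson-Crick pairs between them. This run covers the whole 5p seed and none of the 3p seed. No other mature miRNA in the RefSeq set shares either seed, where 1342 of the 1498 human miRNA names in the table have a RefSeq sequence. The MIR22 gene occupies bases 1713903 to 1713987 of chromosome 17, minus strand (GENCODE 29, GRCh38), with the 3p strand at 1713914 to 1713935 and the 5p strand at 1713952 to 1713973. It sits inside an exon in all 19 annotated transcripts of MIR22HG, a long non-coding RNA gene on the same strand from 1711493 to 1717174. The build to which the authors aligned reads was not stated, and these positions come from the annotation alone.

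The 6 libraries held between 9019266 and 11338580 counts. Levels are given as CPM, the count scaled to a common library size, either after TMM scaling, which corrects for differences in library composition, or relative to the total alone. In bulk RNA, fewer cells with a miRNA and less of it per cell cannot be told apart. The groups differed in composition. The 5 most abundant miRNAs took 68.4% to 71.5% of the counts in control and 74.2% to 77.1% in RARαS77A libraries, and the mean TMM factors were 1.22 and 0.820. The marker miRNAs high in basal breast cancer cells (miR-21-5p, miR-100-5p, miR-221-3p and miR-222-3p) summed to at least 5476355 counts in every library, and 5 epithelial miRNAs of the miR-200 family to at most 1344. In control replicate 3, where the basal sum was lowest, miR-21-5p had 4278110 counts and miR-100-5p 989875. miR-221-3p and miR-222-3p had 114288 and 94082. The basal sum is thus mainly miR-21-5p and is by itself no check of cell identity. The controls differed from each other in marker miRNAs of other tissues. Control replicate 1 had 898 counts of miR-1-3p, a muscle miRNA, against 28 to 49 in the other libraries. Control replicate 2 had 870 counts of miR-375-3p, typical of endocrine cells, against 19 to 54, and 99 of miR-122-5p, typical of liver, against 355 to 527. Control replicate 3 stood apart in a whole list. The 8 miRNAs typical of pluripotent stem cells (of the miR-302/367 and miR-371-373 clusters) summed to 2 and 1 counts in control replicates 1 and 2, where 7 of them were at 0. They summed to 3808 in control replicate 3 and to 2789 to 2855 in the RARαS77A libraries, with none at 0. Their part in the results below was not tested, and the log2 fold changes and the arm ratio of miR-22 are also given without control replicate 3.

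miR-22-3p was a moderately abundant miRNA in these cells. Its counts were 9245, 12287 and 10707 in control replicates 1 to 3 and 8339, 9891 and 10854 in RARαS77A replicates 1 to 3. The counts of the groups overlapped. After TMM scaling the values were 741, 835 and 978 CPM in control and 1061, 1178 and 1307 CPM in RARαS77A libraries. On this scale every RARαS77A library lay above every control, with control replicate 3 nearest to the other group. Relative to total counts they were 856, 1084 and 1187 CPM in control and 860.1, 963 and 1084 CPM in RARαS77A libraries. On that scale the groups overlapped and the highest value was that of control replicate 3.

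**Figure D1:**
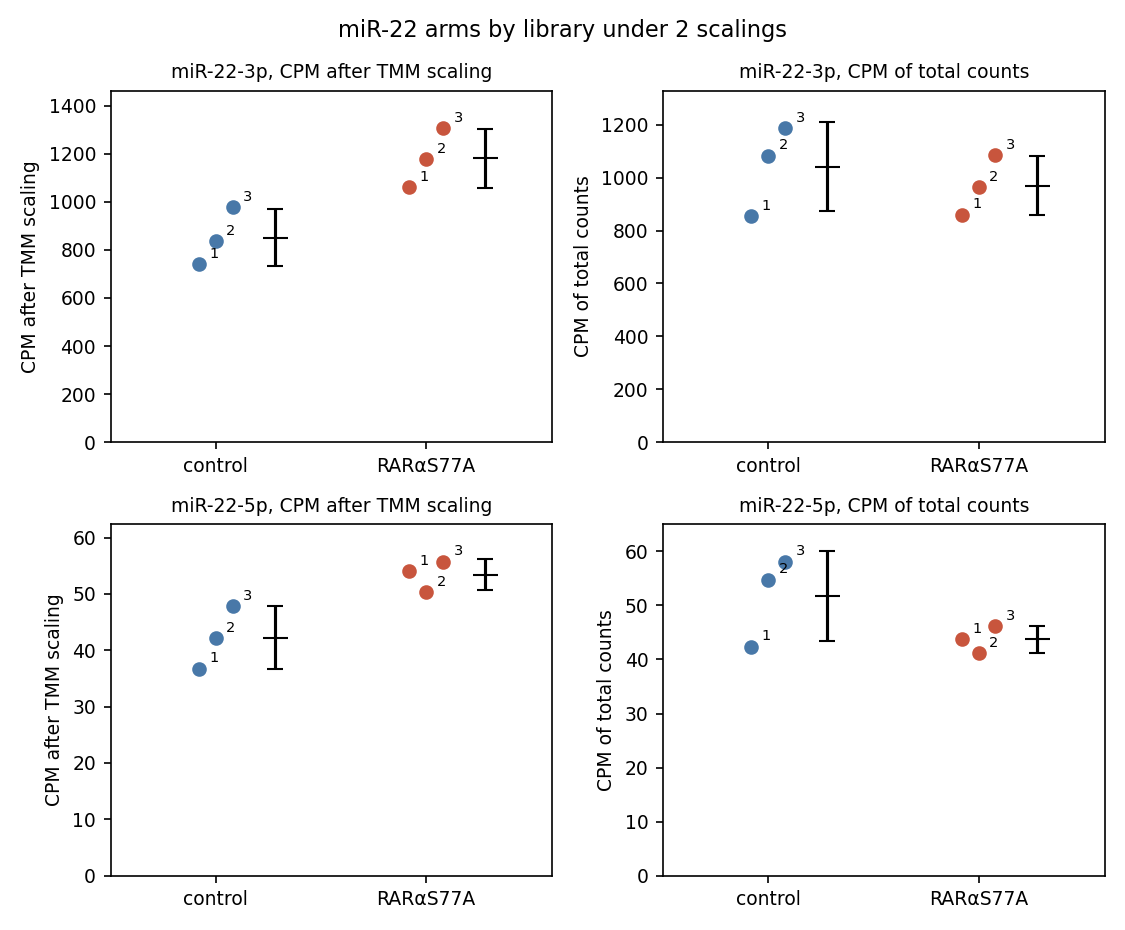
Level of miR-22-3p (top) and miR-22-5p (bottom) in CPM in each library, after TMM scaling (left) and relative to total counts (right). Points are libraries numbered by replicate, and the black marks are the group mean ± SD (n = 3). After TMM scaling the RARαS77A libraries lie above the controls in both arms, whereas relative to total counts the groups overlap.

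After TMM scaling miR-22-3p rose from 852 ± 119 CPM in control to 1182 ± 123 CPM in RARαS77A cells (SD, n = 3 each), a fold change of 1.39. The log2 fold change was 0.47 (95% interval 0.17 to 0.77, standard error 0.13), with an adjusted p = 0.0200 by the quasi-likelihood test of edgeR after Benjamini-Hochberg correction. A miRNA is named as called where this adjusted p is under 0.05. Of the 506 miRNAs tested, 23.3% were called higher and 21.1% lower, and the groups did not overlap in 58.1%. The rise of miR-22-3p was thus a small member of a large set of changes, since 115 of the 118 miRNAs called higher had a larger log2 fold change. The exact permutation test gave p = 0.1 (two-sided), the smallest that 3 against 3 libraries allow.

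The rise depended on the scaling. Relative to total counts, miR-22-3p averaged 1042 ± 169.6 CPM in control and 969 ± 112 CPM in RARαS77A libraries (SD, n = 3 each). The log2 difference then was -0.10 (adjusted p = 0.569, edgeR; exact permutation test, two-sided, p = 0.8). Total counts without the 5 most abundant miRNAs gave 0.24 (adjusted p = 0.128, edgeR), and upper quartile scaling 0.67 (adjusted p = 0.00977, edgeR). These scalings moved all miRNAs together, with median log2 fold changes over the 506 tested of 0.06 (TMM), -0.51 (total counts), -0.17 (without the 5 most abundant) and 0.27 (upper quartile). They also moved the numbers of miRNAs called, from 118 higher and 107 lower under TMM to 51 and 213, 94 and 148, and 141 and 74, respectively. Relative to that median, miR-22-3p stood 0.40 to 0.42 higher (log2) under each scaling in edgeR. A change of scaling shifts all log2 fold changes by nearly the same amount, so this distance was bound to stay nearly constant. Its constancy is therefore no test of the rise. Over all alternatives this distance ranged from 0.17, with control replicate 3 as the only control, to 0.52. Its rank by counts was 50 to 53 in control and 45 to 53 in RARαS77A libraries.

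The rise was also smaller against control replicate 3. Without that library the log2 fold change of miR-22-3p was 0.53 (adjusted p = 0.00622, edgeR). With it as the only control the value was 0.31 (adjusted p = 0.164, edgeR), which rests on 1 control library whose spread was assumed to equal that of the others. Without RARαS77A replicate 3, the library with the highest level, the log2 fold change was 0.40 and the call was lost (adjusted p = 0.0525, edgeR).

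miR-22-5p, the strand that is usually degraded, was present at far lower levels. Its counts were 458, 621 and 524 in control and 425, 423 and 463 in RARαS77A replicates 1 to 3. These are 36.7, 42.2 and 47.9 CPM in control and 54.1, 50.4 and 55.7 CPM in RARαS77A libraries after TMM scaling. As for the guide and 58.1% of all 506 tested, the groups did not overlap on this scale, and control replicate 3 was the highest control. The group means were 42.3 ± 5.57 and 53.4 ± 2.75 CPM (SD, n = 3 each). The log2 difference was 0.34 (95% interval -0.03 to 0.71, standard error 0.16, adjusted p = 0.122, edgeR). miR-22-5p was therefore not called, and the interval reaches from no change to more than the estimate for miR-22-3p. The exact permutation test gave p = 0.1 (two-sided). Relative to total counts the means were 51.8 ± 8.28 and 43.8 ± 2.52 CPM (SD, n = 3 each), and the log2 difference was -0.24 (adjusted p = 0.294, edgeR; exact permutation test, two-sided, p = 0.3). Without control replicate 3 the log2 fold change under TMM was 0.38 (adjusted p = 0.118, edgeR).

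The spread between libraries of a group exceeded counting error in most cases. For miR-22-3p the coefficient of variation after TMM scaling was 14.0% in control and 10.4% in RARαS77A libraries, where counting alone gives 0.965% and 1.02%. For miR-22-5p it was 13.2% and 5.14%, against 4.33% and 4.78% from counting, so the 3 RARαS77A libraries differed by little more than counting error.

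**Figure D2:**
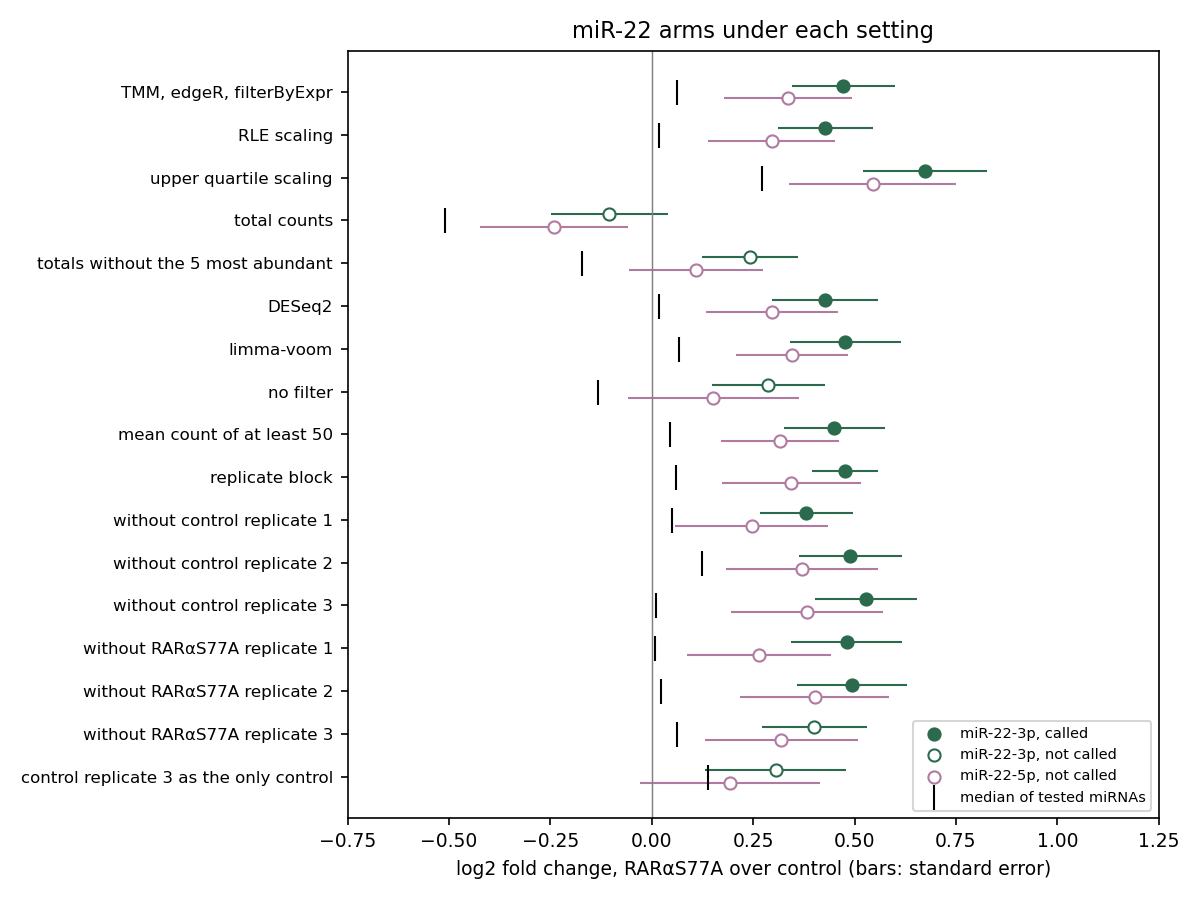
log2 fold change of miR-22-3p and miR-22-5p (RARαS77A over control) with its standard error under each setting, beside the median log2 fold change of all miRNAs tested (black ticks). Filled points have an adjusted p under 0.05. miR-22-3p lies between -0.10 and 0.67 and moves with the median between scalings, and miR-22-5p is called under none of the settings.

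The ratio of the arms within a library does not depend on any scaling between libraries. In control replicates 1 to 3 there were 20.2, 19.8 and 20.4 counts of miR-22-3p for each count of miR-22-5p, and in RARαS77A replicates 1 to 3 there were 19.6, 23.4 and 23.4. The controls were nearly equal, while RARαS77A replicate 1 lay below all of them and replicates 2 and 3 above. As a share of all miR-22 counts, the 5p arm made up 4.72% (exact 95% binomial interval 4.31 to 5.16), 4.81% (4.45 to 5.19) and 4.67% (4.28 to 5.07) in control replicates 1 to 3. In RARαS77A replicates 1 to 3 it made up 4.85% (4.41 to 5.32), 4.10% (3.73 to 4.50) and 4.09% (3.73 to 4.47). The intervals of all 6 libraries overlap each other, and they cover counting error only, since no molecular identifiers are described. The share was 4.73% ± 0.0734 in control and 4.35% ± 0.435 in RARαS77A cells (SD, n = 3 each), which did not differ beyond the spread (exact permutation test, two-sided, p = 0.4). Without control replicate 3 the control share was 4.77% ± 0.0642 (SD, n = 2).

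The ratio of the arms was compared across all miRNAs whose arms both had a mean count of 10 or more, using limma on the log2 ratio of the 5p to the 3p count with 0.5 added to each. Of these 117 arm pairs, 52.1% changed their ratio, with 36 shifted toward the 5p and 25 toward the 3p arm. miR-22 was not among them. Its log2 ratio was -4.33 in control and -4.46 in RARαS77A cells, a change of -0.13 (95% interval -0.41 to 0.14, adjusted p = 0.396, limma). The median size of the change over all pairs was 0.74, and 11 of the 117 pairs changed by less than miR-22. The pairs are not all independent. miR-423 and the antisense miR-3184 mirrored each other, with changes of 1.43 and -1.43, and were called once in each direction. The 3p arm was the more abundant in 45 pairs, and in 18 of these it led by more than in miR-22. Without control replicate 3 the change of miR-22 was -0.14 (adjusted p = 0.409, limma). Without RARαS77A replicate 1 it was -0.22 (adjusted p = 0.123, limma), and the call did not change. With edgeR's exon-usage test (diffSpliceDGE) 16 pairs were called in place of 61, and miR-22 was not (-0.14, adjusted p = 1.00, edgeR).

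**Figure D3:**
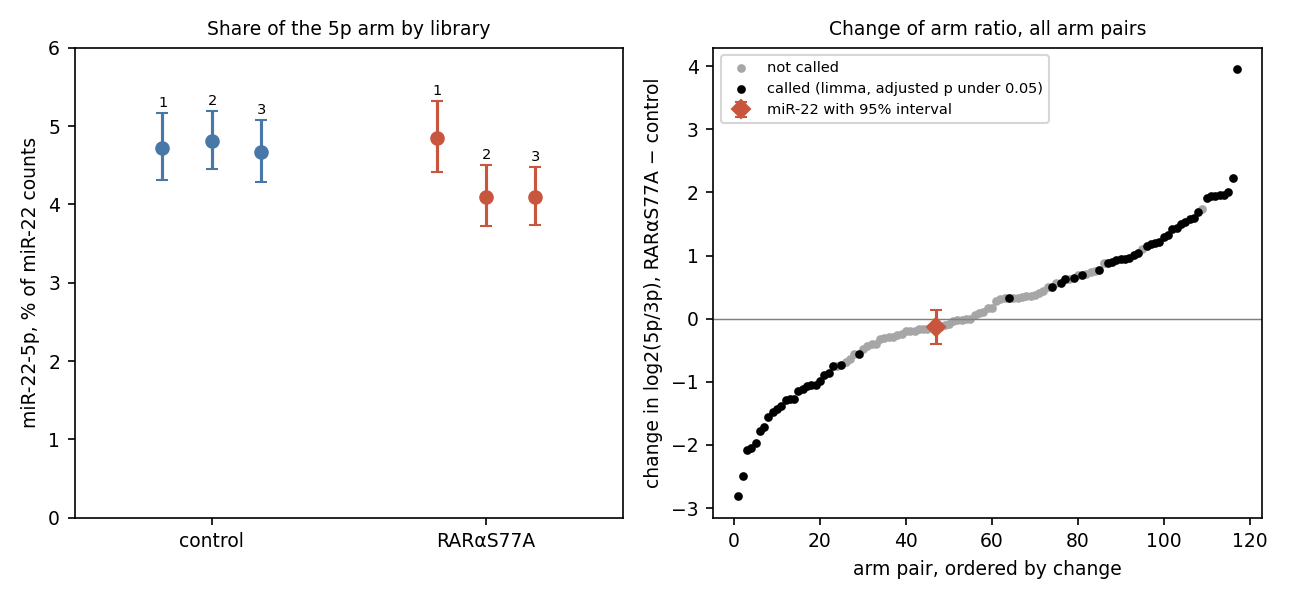
Left, share of miR-22-5p among miR-22 counts in each library (%), numbered by replicate, with exact 95% binomial intervals. Right, change of the log2 ratio of 5p to 3p counts (RARαS77A minus control) for 117 arm pairs in order of size, black where called, with miR-22 and its 95% interval in red. miR-22, at -0.13, lies in the flat middle of the curve.

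MIR132 and MIR212 are the other miRNA genes examined in this region of the short arm of chromosome 17. They lie on the same strand as MIR22, 335921 and 336284 bases away (2049908 to 2050008 and 2050271 to 2050380, GENCODE 29, GRCh38). They form a family of activity-regulated miRNAs, best known from neurons, and their 3p strands share a seed, in capitals here (RefSeq, GRCh38.p14).
miR-132-3p: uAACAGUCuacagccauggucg
miR-212-3p: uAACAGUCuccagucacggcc

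Both arms of miR-132 rose, with larger estimates than that of miR-22-3p, but no test compared them. The 95% interval of miR-22-3p (0.17 to 0.77) overlaps that of miR-132-3p and lies just below that of miR-132-5p. miR-132-3p had 27.7, 34.5 and 28.3 CPM in control and 64.1, 60.6 and 43.7 CPM in RARαS77A replicates 1 to 3 after TMM scaling. Its log2 fold change was 0.90 (95% interval 0.43 to 1.36, adjusted p = 0.00878, edgeR). miR-132-5p went from 33.6 ± 4.20 to 78.0 ± 13.5 CPM (SD, n = 3 each), or 1.22 on the log2 scale (95% interval 0.78 to 1.65, adjusted p = 0.00171, edgeR). In neither arm did the groups overlap after TMM scaling, which held for 58.1% of all 506 tested. Under total counts miR-132-5p was still called higher (0.63, adjusted p = 0.0375, edgeR), whereas miR-132-3p was not (0.31, adjusted p = 0.263, edgeR). Without control replicate 3 both remained called, with log2 fold changes of 0.80 (miR-132-3p, adjusted p = 0.0170) and 1.11 (miR-132-5p, adjusted p = 0.00184, both edgeR). The arms of miR-212 had between 9 and 33 counts per library. Their log2 fold changes were 0.65 (95% interval -0.18 to 1.48, miR-212-3p) and 0.43 (-0.17 to 1.03, miR-212-5p), and neither was called.

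Other miRNAs known to target TET enzymes were called in both directions. Of 8 such miRNAs besides miR-22-3p, all were tested, 2 were called higher and 3 lower, and their median log2 fold change was -0.03, against 0.06 for all tested. Over all 506 tested, 23.3% were called higher and 21.1% lower, and nothing particular to these 8 is read from so few. miR-7-5p had the largest rise, from 4544 ± 684 to 10505 ± 717 CPM (SD, n = 3 each), or 1.21 on the log2 scale (adjusted p = 0.000365, edgeR). Its counts differ by at most 2.67% in any library from those of miR-3529-3p, which is transcribed from the opposite strand of a miR-7 hairpin, so the value is uncertain as a measure of miR-7-5p alone. miR-26a-5p, also known for repressing EZH2, rose by nearly the same amount as miR-22-3p (log2 0.46, adjusted p = 0.0175 in edgeR). miR-29a-3p and miR-29c-3p, of a family that represses collagens and DNA methyltransferases, fell with log2 fold changes of -0.52 (adjusted p = 0.0113) and -0.93 (adjusted p = 0.00423, both edgeR). miR-125b-5p fell too (-0.79, adjusted p = 0.00171, edgeR). Not called were miR-29b-3p (-0.06), miR-26b-5p (0.00) and miR-101-3p (0.43). Under total counts miR-26a-5p was no longer called (-0.11), and 1 of the list was called higher and 5 lower. Under that scaling 51 of all 506 tested were called higher and 213 lower.

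Of 8 miRNAs known to target ESR1 besides miR-22-3p, 6 were tested, 1 was called higher and 0 were called lower by edgeR, where 23.3% and 21.1% of all tested were called. At an unadjusted p under 0.05, 2 were higher and 1 was lower. DESeq2 called 2 in each direction, where it called 108 of all 506 tested higher and 110 lower. The median log2 fold change of the 6 was 0.72, against 0.06 for all tested, and it includes miR-302c-3p (1.70) and miR-20b-5p (1.24), neither of which was called. With control replicate 3 as the only control the median was -0.07, and with total counts 0.14. miR-193b-3p, a miRNA with tumor-suppressive roles in breast cancer, rose from 30.3 ± 3.24 to 62.4 ± 5.69 CPM (SD, n = 3 each), or 1.04 on the log2 scale (adjusted p = 0.00171, edgeR). With total counts this call was lost (0.46, adjusted p = 0.0719, edgeR). miR-221-3p and miR-222-3p, which are made from neighbouring hairpins and repress the cell cycle inhibitor p27, had log2 fold changes of -0.32 (adjusted p = 0.0847) and 0.39 (adjusted p = 0.0540, both edgeR). miR-18a-5p was at -0.38 (adjusted p = 0.104, edgeR). The other tested members followed the split of the controls. miR-302c-3p had 0, 0 and 301 counts in control and 238, 242 and 246 in RARαS77A replicates 1 to 3, and miR-20b-5p had 1, 2 and 30 against 19, 19 and 16. miR-206 and miR-18b-5p did not pass the filter on low counts. Without control replicate 3, 4 of the list were called higher (miR-193b-3p, miR-222-3p, miR-302c-3p and miR-20b-5p) and 1 lower (miR-221-3p). In that fit 125 of all 525 tested were called higher and 116 lower.

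**Figure D4:**
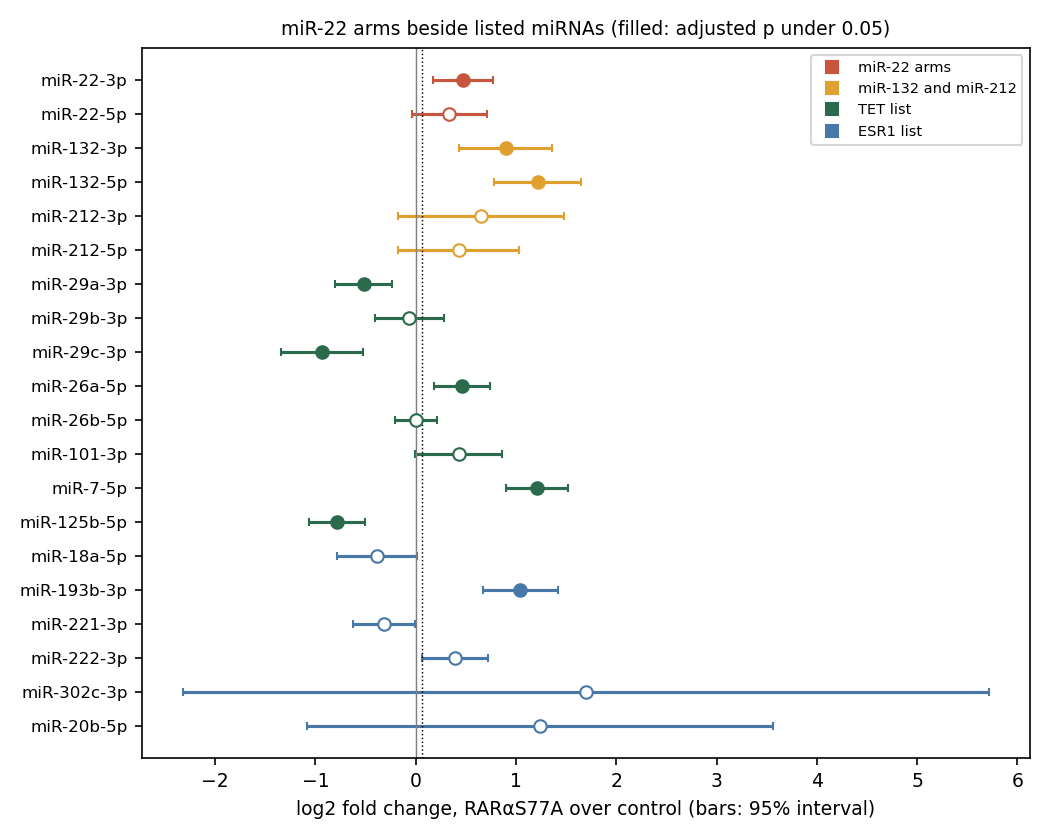
log2 fold change (RARαS77A over control, TMM, edgeR) with its 95% interval for the miR-22 arms, the arms of miR-132 and miR-212, and the tested members of the TET and ESR1 lists. Filled points have an adjusted p under 0.05, and the dotted line is the median of all 506 tested miRNAs (0.06). miR-22-3p, at 0.47, lies near miR-26a-5p and below both miR-132 arms.

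The miRNAs with the most similar profile were found by the root mean square difference of log2 CPM after TMM scaling, centred on the mean over the 6 libraries, among the 312 other miRNAs whose mean count was 50 or more. For miR-22-3p these were miR-224-5p (0.085), let-7f-5p (0.085) and let-7e-5p (0.10), where the median over all candidates was 0.40. All 3 were called higher, with log2 fold changes of 0.49, 0.54 and 0.56 (adjusted p = 0.00426, 0.0326 and 0.0169, edgeR), and none of them kept a positive value under total counts. Changes like that of miR-22-3p follow from this choice, made on the same 6 libraries, and add no support for its rise. The call of let-7f-5p was lost when any of the RARαS77A libraries was left out (adjusted p up to 0.0861, edgeR). For miR-22-5p the most similar were miR-130a-3p (0.063), miR-769-5p (0.10) and miR-629-5p (0.11). None of these was called, and their likeness to miR-22-5p follows from the choice in the same way. The arms of miR-22 differed from each other by 0.11 on this measure, and 1.28% of the candidates were closer to miR-22-3p than its own passenger strand.

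By mean TMM-scaled CPM over the 6 libraries, miR-22-3p ranked 49 and miR-22-5p ranked 160 of the 506 tested miRNAs. Levels of different miRNAs are counts of molecules of similar length, and the ligation steps of library preparation differ in yield between sequences. miR-22-3p, at 1017 ± 211 CPM (SD, n = 6), lay between miR-3184-3p (1033 ± 413 CPM) and miR-1307-3p (967 ± 151 CPM). miR-22-5p, at 47.8 ± 7.24 CPM, lay between miR-372-3p (49.0 ± 38.0 CPM), which is among the stem cell miRNAs nearly absent from control replicates 1 and 2, and let-7a-3p (46.6 ± 18.9 CPM). These differences between neighbours are smaller than the SD over the 6 libraries, which includes the difference between the groups. The order was not the same in both groups. miR-3184-3p lay below miR-22-3p in control (661 ± 77.01 against 852 ± 119 CPM) and above it in RARαS77A cells (1405 ± 72.4 against 1182 ± 123 CPM, SD, n = 3 each). The log2 arm ratios (5p over 3p) of miR-3184 and the antisense miR-423 were mirror images in control, at 2.27 and -2.27. Counts of miR-3184-3p may therefore not be separate from those of miR-423, and its place beside miR-22-3p is read with that limit. let-7a-3p lay above miR-22-5p in control (63.4 ± 4.18 against 42.3 ± 5.57 CPM) and below it in RARαS77A cells (29.7 ± 4.77 against 53.4 ± 2.75 CPM).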

How the data were processed

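Small RNA of MDA-MB-231 cells was prepared with an NEBNext kit and read on an Illumina HiSeq, and the groups follow the sample titles. The authors deposited whole-number read counts per mature miRNA, not normalized, and the TPM made from them. The deposited TPM equals each count divided by its column total on the usual scale, with a largest difference of 4.74e-05, and was used only for this check. Per the labels Bowtie was among the tools, with no role given. The miRNA reference, the genome build, filters, adapter handling and the treatment of reads with several matches were not stated in the material at hand. Each of these could change how reads were divided between arms and related miRNAs.

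Counts were tested with edgeR 4.0.16 in R 4.3.3 (TMM, filterByExpr with a minimum count of 10, glmQLFit, glmQLFTest), with Benjamini-Hochberg adjustment over all 506 miRNAs tested. Standard errors were derived from the F statistic. Arm ratios were tested with limma 3.58.1 with a variance trend on the less abundant arm. Single values were also compared by exact permutation. Alternatives used DESeq2 1.42.0, limma-voom, other scalings and filters, blocking on replicate, omission of each library in turn, and control replicate 3 alone. The steps were tested on simulated data with known changes. The limit for a count of 0 was 3 counts (0.265 to 0.333 CPM of the totals), and binomial intervals are Clopper-Pearson.

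The miRNAs named are the miR-22 arms, those of miR-132 and miR-212, the TET and ESR1 lists, miRNAs sharing a miR-22 seed, the 3 most similar profiles per arm, the neighbours in level, and marker lists. The members and all lists were chosen with earlier results of these data known. Among the marker lists, those for stem, epithelial and basal cells are described in the results. The others gave, in counts summed per library, 30 to 989 for muscle (4 miRNAs), 99 to 527 for liver (miR-122-5p), 235 to 491 for blood (6 miRNAs) and 19 to 870 for endocrine cells (miR-375-3p). None of the tested members of these 4 lists was called.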

Additional observations from a re-analysis of the deposited data

How the results depend on the processing

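miR-22-3p was higher in RARαS77A cells under 15 of 16 alternatives and called under 11 of them. The log2 fold change ranged from -0.10 to 0.67, and the adjusted p lay between 0.00342 (DESeq2) and 0.569. Its value was -0.10 with total counts, 0.24 with totals without the 5 most abundant miRNAs, 0.29 without a filter and 0.31 with control replicate 3 as the only control, all without a call. Without single libraries it lay between 0.38 and 0.53, and was not called without RARαS77A replicate 3. miR-22-5p was called under none of 16 alternatives (-0.24 to 0.54), and was negative with total counts only. The change of the miR-22 arm ratio lay between -0.22 and -0.09 over 13 alternatives, -0.22 to -0.09 without single libraries, with no call.

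With total counts 51 miRNAs were called higher and 213 lower, with 1 higher and 5 lower in the TET list and 0 higher (1 at an unadjusted p under 0.05, edgeR) and 2 lower in the ESR1 list. The median log2 fold change was then -0.51. Without a filter 162 were called lower, with 1 of the TET list higher and 2 and 3 of the ESR1 list higher and lower. When the 5 most abundant were left out of the totals, 1 of the TET list was called higher and 2 of the ESR1 list lower. In the ESR1 list 2 were called lower with RLE scaling, 2 higher with upper quartile scaling, 3 higher with limma-voom, and 2 in each direction with DESeq2 and with a mean count of at least 50. The cause of these moves was not tested. Without single libraries the numbers called higher and lower were 101 to 125 and 92 to 116 for all miRNAs, 2 to 3 and 3 for the TET list, and 1 to 4 and 0 to 1 for the ESR1 list. The highest number for the ESR1 list came without control replicate 3. Arm pairs called were 16 with diffSpliceDGE, 33 with control replicate 3 as the only control, and 52 to 62 without single libraries, against 61.

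With total counts miR-26a-5p (-0.11), miR-26b-5p (-0.57), miR-224-5p (-0.082), let-7f-5p (-0.037) and let-7e-5p (-0.017) changed sign, as did miR-222-3p, miR-101-3p, miR-212-5p, miR-130a-3p, miR-769-5p and miR-629-5p, without a call on either side. miR-26b-5p was also negative without the 5 most abundant in the totals (-0.23). Among 381 values of 24 single miRNAs other than miR-22, 17 lost a call, 32 gained one and 25 changed sign, 11 of them with total counts. Over all tested miRNAs, same-numbered libraries deviated from their groups with correlations of 0.0390, 0.0992 and 0.0209, and the main fit did not pair them. The level of miR-22-3p after TMM scaling nevertheless rose with the replicate number in both groups. Blocking on replicate moved its standard error from 0.13 to 0.082 and its adjusted p from 0.0200 to 0.00771 (edgeR). For miR-22-5p these went from 0.16 to 0.17 and from 0.122 to 0.157 (edgeR). With a replicate block the log2 fold changes were 0.48 (miR-22-3p) and 0.34 (miR-22-5p), the arm ratio changed by -0.13, 107 miRNAs were called higher and 94 lower, and no call on miR-22 changed. Depth limits the 5p arm most, whose 423 to 621 counts per library give a counting error of 4.01% to 4.86%.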
